A study of Homo sapiens with 12 samples.

Results

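The genes described here are 7 metallothionein rows (MT2A, MT1X, MT1E, MT1F, MT1G, MT1M and the transcribed pseudogene MT1L), MTF1 and SLC30A1. They were chosen by gene symbol and are 9 of the 54261 rows of the total RNA count table. The study sequenced HCT116, a human colorectal carcinoma line, and HCT116oxR, a resistant population grown out of it by stepwise oxaliplatin exposure from 0.1 to 5 µmol/L, with 1 year at the highest dose. Oxaliplatin is a platinum-based chemotherapy drug whose main target is DNA. Parental HCT116 and HCT116oxR had 3 total RNA libraries each, from cultures grown and harvested separately, and all HCT116oxR cultures come from 1 resistant line, so p-values describe variation among cultures rather than among resistant lines. Whether HCT116oxR was a single clone, and whether drug was present at harvest, is not given in the sources used here.

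The metallothioneins are small cysteine-rich proteins that bind zinc, copper and cadmium and, through their thiols, other soft metals such as platinum. Their genes are switched on by metals through MTF1, a zinc-finger transcription factor that binds a short promoter sequence, the metal response element. SLC30A1 encodes ZnT1, the zinc exporter of the plasma membrane, and is another textbook target of MTF1. Metallothioneins therefore buffer free zinc inside the cell, and ZnT1 removes it.

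Total counts ranged from 11950069 to 13558077 per library. Levels are CPM, counts scaled to the library total, with TMM factors (trimmed mean of M values, which correct for library composition). Fold changes are edgeR's log2 values, positive where HCT116oxR was higher. Calls are Benjamini-Hochberg adjusted over all 17511 genes tested, with a threshold of 0.05. Of the colorectal epithelial markers examined, 7 of 9 had enough counts to be tested, and the summed level of all 9 was 3159 to 3271 CPM in parental and 3842 to 3929 CPM in HCT116oxR libraries. VIL1 and LGALS4 were the others. The summed level was 55.3 to 68.5 CPM in parental and 46.7 to 51.7 CPM in HCT116oxR libraries for fibroblast markers, 10.2 to 13.2 and 5.30 to 6.71 CPM for leukocyte markers, with PTPRC and CD3E at 0 counts, and 1.66 to 2.43 and 3.01 to 3.98 CPM for endothelial markers. Of the 6 leukocyte markers, 4 had at most 3 counts over all libraries, and only CD68 was tested, which was lower. Among the epithelial markers EPCAM, KRT8, KRT18, CLDN4 and CDX2 were higher, KRT19 was lower and CDH1 did not pass. The part of these marker differences in the results was not tested. In bulk RNA, less RNA per cell and fewer cells that hold it cannot be told apart.

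The metal response element is the reason to show promoters. RefSeq promoter sequences (GRCh38.p14) matched 4 of the 9 genes. The 250 bases before the annotated start are printed for both metallothioneins that have an entry and for SLC30A1, 5′ to 3′ on the gene's own strand, with matches to the element's core (TGCACNC or TGCGCNC, on either strand) in capitals.
MT2A: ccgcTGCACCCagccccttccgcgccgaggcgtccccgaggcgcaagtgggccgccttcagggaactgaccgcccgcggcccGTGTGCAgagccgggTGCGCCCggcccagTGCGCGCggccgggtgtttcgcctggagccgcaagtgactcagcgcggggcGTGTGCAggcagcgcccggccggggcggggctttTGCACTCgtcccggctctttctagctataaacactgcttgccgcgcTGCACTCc
MT1X: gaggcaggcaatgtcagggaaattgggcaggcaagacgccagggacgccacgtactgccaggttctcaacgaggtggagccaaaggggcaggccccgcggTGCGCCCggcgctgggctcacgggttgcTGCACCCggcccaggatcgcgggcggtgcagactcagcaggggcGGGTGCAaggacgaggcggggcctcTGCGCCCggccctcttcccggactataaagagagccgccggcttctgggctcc
SLC30A1: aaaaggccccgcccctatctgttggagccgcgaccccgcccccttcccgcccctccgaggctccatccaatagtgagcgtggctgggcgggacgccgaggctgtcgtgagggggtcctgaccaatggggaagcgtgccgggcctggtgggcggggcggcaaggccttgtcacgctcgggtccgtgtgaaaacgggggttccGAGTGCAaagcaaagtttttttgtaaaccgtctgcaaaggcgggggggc
These windows are chr16:56608334-56608583 on the plus strand for MT2A, chr16:56682220-56682469 on the plus strand for MT1X and chr1:211579162-211579411 on the minus strand for SLC30A1. MT2A held 7 matches, MT1X 4 and SLC30A1 1, and the same window of MTF1 held 0. Of 35116 human promoter windows of this length, 24.8% held at least 1 match, 0.37% held at least 4 and 0.12% held at least 5. The matches in MT2A began 246, 168, 153, 139, 88, 54 and 8 bases before the start, those in MT1X 150, 122, 78 and 53 bases before it, and the match in SLC30A1 49 bases before it. The antioxidant response element TGACNNNGC and the GC box GGGCGG were also searched on both strands. MT2A, MT1X and SLC30A1 each held 1 antioxidant response element, which 10.9% of all windows held. GC boxes numbered 2 in MT2A, 2 in MT1X and 6 in SLC30A1, and 42.6% of all windows held at least 1. The antioxidant elements overlapped no metal element match, 1 GC box of MT1X overlapped the metal element match that begins 78 bases before the start, and 2 GC boxes of SLC30A1 overlapped each other. A match is a run of letters and does not show that a factor binds there.

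Of the 9 genes, 6 had enough counts to be tested and 3 had 0 counts in every library. MT2A, MT1X and MT1E fell in HCT116oxR, SLC30A1 rose, and MT1F and MTF1 did not pass. Across all tested genes 44.1% were called, 21.8% as lower and 22.3% as higher, so that a call by itself was common in this comparison. The sizes of MT2A and MT1X lay further out, since the middle of the distribution from the 10th to the 90th percentile of all tested genes ran from -0.58 to 0.66 (log2). At least a 2-fold fall was called for 671 genes. The libraries of the lines did not overlap for 5 of the 6 tested genes, all but MTF1, and for 50.5% of all tested genes.

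MT2A (gene ID 4502, chr16:56608584-56609497) encodes metallothionein-2, the family's widely expressed form. Its parental levels were 251, 248 and 289 CPM and its HCT116oxR levels 96.9, 120 and 112 CPM. Every HCT116oxR library lay below every parental one, with parental replicate 3 the highest and HCT116oxR replicate 1 the lowest. The mean fell 2.40-fold, from 263 ± 22.7 CPM in parental cells to 110 ± 11.5 CPM (SD, n = 3), a log2 fold change of -1.26 with a 95% interval of -1.47 to -1.06 (edgeR adjusted p = 5.73e-06).

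MT1X (gene ID 4501, chr16:56682470-56684196) lies in the same cluster, as its last gene. Its levels were 28.2, 22.9 and 27.5 CPM in parental cells and 12.2, 12.01 and 10.998 CPM in HCT116oxR. The lines did not overlap, and parental replicate 2 was the lowest of its line. MT1X fell 2.23-fold, from 26.2 ± 2.91 to 11.7 ± 0.636 CPM, with a log2 fold change of -1.16 (-1.39 to -0.92, edgeR adjusted p = 9.97e-16).

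MT1E (gene ID 4493, chr16:56625781-56627112) stood at 175, 156 and 167 CPM in parental cells and at 109, 125 and 109.98 CPM in HCT116oxR. The lines again did not overlap, but the gap between them was narrower than for MT2A. MT1E fell 1.45-fold, from 166 ± 9.29 to 115 ± 8.62 CPM, a log2 fold change of -0.53 (-0.63 to -0.44, edgeR adjusted p = 2.82e-18).

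MT1F (gene ID 4494, chr16:56657959-56659303) stood apart from these 3 genes and rested on few reads. It had 31, 22 and 34 counts in parental and 58, 39 and 34 in HCT116oxR libraries, or 2.34, 1.85 and 2.75 CPM against 4.28, 2.91 and 2.77 CPM. The highest parental library and the lowest HCT116oxR library nearly touched, and HCT116oxR replicate 1 was the highest of the 6. The log2 fold change was 0.52 with an interval from -0.06 to 1.10 (edgeR adjusted p = 0.144), and it was 0.29 without HCT116oxR replicate 1. The interval includes no change as well as a rise of about the size of SLC30A1's, and it lies above the values of MT2A, MT1X and MT1E.

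MT1G, MT1M and MT1L had 0 counts in all 6 libraries. At these depths a count of 0 allows a level of up to 0.221 to 0.251 CPM in a library, taking 3 counts as the limit, and this covers counting error only. A row at 0 does not show that a gene was silent, since reads that match several copies may have been dropped or assigned to another copy. In the same table TXNRD1, the gene of the widely expressed cytosolic thioredoxin reductase, had 10 counts over the 6 libraries. It is not a metallothionein copy, and why its count was low was not tested. TXNRD1 is on the list of metal-responsive genes and was singled out after its counts were seen.

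**Figure D1:**
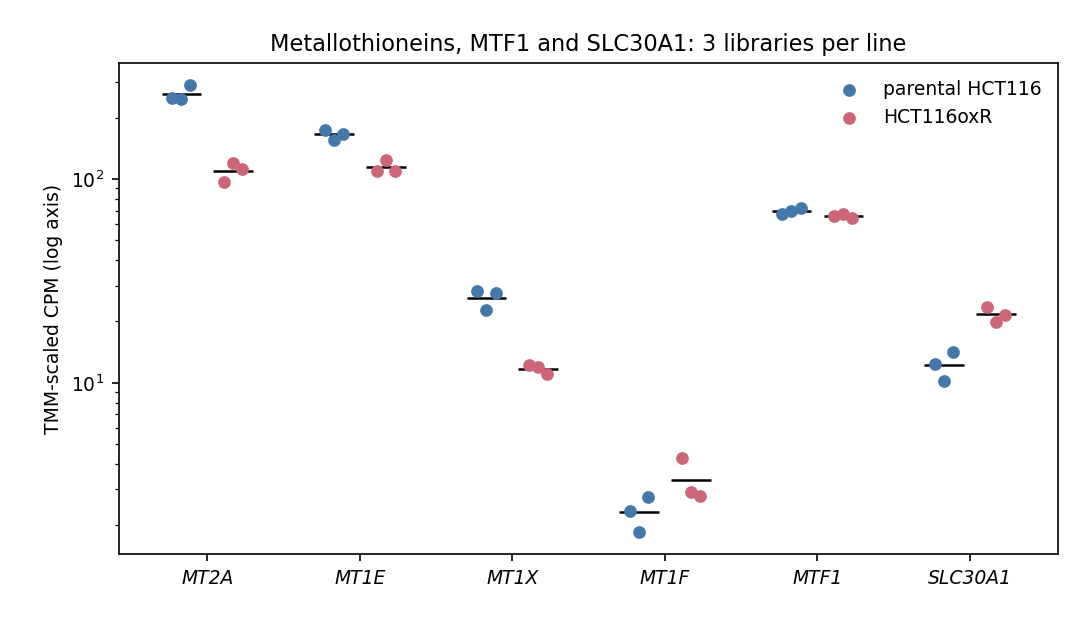
TMM-scaled CPM (vertical log axis) of the 6 genes with enough counts, 1 point per library, blue for parental HCT116 and red for HCT116oxR, with a black line at the mean of 3. MT2A, MT1E and MT1X sit lower in all HCT116oxR libraries, SLC30A1 sits higher in all of them, MTF1 overlaps, and the MT1F groups are 2.75 and 2.77 CPM apart at their closest libraries.

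Reads can be shared among metallothionein copies, so the family was also summed. The table held 21 metallothionein rows, 12 of them protein-coding, and 10 rows had 0 counts throughout. Beside MT1G, MT1M and MT1L, the rows at 0 were MT1A, MT1H, MT1HL1, MT4 and the pseudogenes MT1CP, MT1IP and MT1P3. The sum over all rows was 458, 431 and 488 CPM in parental and 225, 260 and 237 CPM in HCT116oxR libraries. The mean was 459 ± 28.3 CPM in parental cells and 241 ± 18.2 CPM in HCT116oxR (SD, n = 3), 1.91-fold lower and without overlap, so the lower level did not depend on how reads were divided among copies that have a row. MT2A, MT1E and MT1X together held 99.1% of the metallothionein counts in parental and 97.98% in HCT116oxR libraries.

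The remaining rows held few reads. MT1P1, a pseudogene on chromosome 9, had 32 counts in all parental and 32 in all HCT116oxR libraries and was the only other row tested (log2 fold change -0.08, interval -1.12 to 0.96, edgeR adjusted p = 0.920). MT1XP1 had 12 and 9 counts, MT2P1 8 and 5, MT1B 5 and 4, MT1DP 4 and 5, and MT1JP 2 and 4. MT3, the form known from brain, had 2 counts in 1 parental library and 0 elsewhere.

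The make-up of the family's reads differed between the lines. The share of MT2A was 54.8%, 57.6% and 59.2% of metallothionein counts in parental and 43.1%, 45.9% and 47.3% in HCT116oxR libraries. MT1E held 36.2 ± 1.99% in parental and 47.6 ± 1.17% in HCT116oxR cells (mean ± SD, n = 3), MT1X 5.71 ± 0.433% and 4.89 ± 0.458%, and MT1F 0.502 ± 0.0680% and 1.40 ± 0.440%. The share of MT2A was lower, and that of MT1E higher, in every HCT116oxR library than in any parental one. These are shares of counts that were not scaled to transcript length, so they are read between lines and not between genes.

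The log2 ratio of MT2A to MT1E counts within a library was 0.66 ± 0.14 in parental and -0.07 ± 0.10 in HCT116oxR cells, a difference of -0.73 without overlap. That of MT1X to MT1E was -2.66 ± 0.09 and -3.28 ± 0.11, a difference of -0.62, also without overlap. For both, the exact permutation test gave p = 0.1 (2-sided, 3 libraries against 3), the smallest value this design allows, and 0.15 after adjustment over the 3 ratios. MT2A to MT1X was 3.33 ± 0.15 and 3.22 ± 0.20, which overlapped (exact permutation p = 0.5). This test could not reach the threshold at 3 libraries against 3, so it says nothing for or against a difference in the size of the fall. In the edgeR fit the interval of MT1E (-0.63 to -0.44) did not meet that of MT2A (-1.47 to -1.06) or of MT1X (-1.39 to -0.92). These intervals come from the same 6 libraries, and setting them side by side is not a test of a difference between genes.

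**Figure D2:**
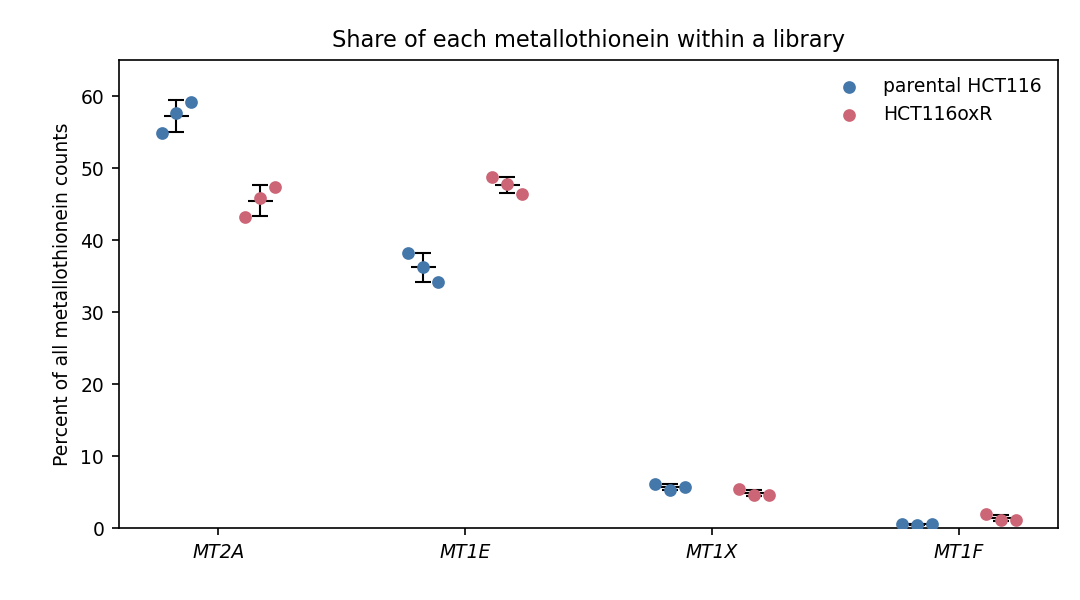
Percent of all metallothionein counts held by MT2A, MT1E, MT1X and MT1F in each library (points; blue parental HCT116, red HCT116oxR), with mean and SD of 3 in black. The MT2A points are between 54.8% and 59.2% in parental and between 43.1% and 47.3% in HCT116oxR libraries. The MT1E points, as shares, are higher in HCT116oxR, although the CPM of MT1E fell.

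MTF1 (gene ID 4520, chr1:37809574-37859592), the metal sensor of the pathway, had levels of 67.3, 69.8 and 72.3 CPM in parental and 66.1, 67.4 and 64.5 CPM in HCT116oxR libraries. The lines overlapped. The log2 fold change was -0.08 with an interval of -0.20 to 0.04 (edgeR adjusted p = 0.313), which leaves out any change in mRNA as large as that of MT2A, MT1X, MT1E or SLC30A1. MTF1 mRNA does not report on the activity of the protein. The pseudogene RPS2P13, which lies within MTF1, had 0 counts, and no other of the 9 genes overlaps an annotated gene.

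SLC30A1 (gene ID 7779, chr1:211571568-211579161) went the other way from MT2A, MT1X and MT1E. It had 12.3, 10.3 and 14.2 CPM in parental and 23.5, 19.9 and 21.6 CPM in HCT116oxR libraries. All HCT116oxR libraries lay above all parental ones, as did 25.7% of all tested genes. SLC30A1 rose 1.77-fold, from 12.2 ± 1.95 to 21.7 ± 1.81 CPM, with a log2 fold change of 0.82 (0.58 to 1.07, edgeR adjusted p = 8.85e-09).

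The other zinc transporters were called in both directions, as were all tested genes (22.3% higher and 21.8% lower). Of the exporters of the SLC30 family and TMEM163, 6 of 10 were tested, 2 rose and 2 fell, while 2 missed the threshold. Their median log2 fold change was 0.06, beside -0.00057 over all tested genes. SLC30A7, which loads zinc into the Golgi, fell from 32.6 ± 2.60 to 24.7 ± 0.941 CPM (-0.40, edgeR adjusted p = 2.18e-04). The interval of each tested exporter lay below 0.60, and that of SLC30A1 reached from 0.58 to 1.07. Whether SLC30A1 differs from the other exporters was not tested.

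The smaller calls among the exporters were less firm. SLC30A3 (0.38) and SLC30A4 (0.34), exporters into vesicles, rose, and SLC30A6 (-0.24), a Golgi transporter, fell. SLC30A3 was not called by DESeq2 (adjusted p = 0.100). SLC30A4 was not called without parental replicate 2 (adjusted p = 0.0945) or HCT116oxR replicate 1 (0.146), and SLC30A6 was not called without parental replicate 2 (0.0915), parental replicate 3 (0.0705) or HCT116oxR replicate 3 (0.247), all by edgeR. SLC30A5 (-0.01, interval -0.12 to 0.10) and SLC30A9 (0.13, -0.04 to 0.31), named after their values were seen, did not pass.

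Among the zinc importers of the SLC39 family, 10 of 14 were tested, 2 rose and 4 fell, while 4 missed the threshold, and their median log2 fold change was -0.17. SLC39A4, the intestinal zinc importer, had 17.1, 19.0 and 19.1 CPM in parental and 33.5, 39.99 and 37.9 CPM in HCT116oxR libraries. SLC39A4 rose 2.02-fold (log2 fold change 1.01, interval 0.82 to 1.21, edgeR adjusted p = 6.18e-17) and had the largest rise of the zinc transporters tested, SLC30A1 included. It lies on chromosome 8, as does SLC39A14, which was named after its value was seen. SLC39A14 was at -0.51 and was not called (edgeR adjusted p = 0.0801). The part of chromosomal position in these values was not tested.

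SLC39A8, a plasma membrane importer of zinc and manganese, rose from 36.1 ± 5.73 to 45.1 ± 3.11 CPM (0.32, edgeR adjusted p = 6.84e-04), with parental replicate 2 overlapping HCT116oxR. SLC39A7, which releases zinc from the endoplasmic reticulum, fell from 150.3 ± 8.69 to 130 ± 3.34 CPM (-0.21). SLC39A13 fell by 0.30 on the log2 scale, and edgeR did not call it without parental replicate 1 (adjusted p = 0.0535), parental replicate 3 (0.124) or HCT116oxR replicate 1 (0.142). The falls of SLC39A9 and SLC39A1, chosen after their values were seen, were both 0.20 in size (log2 fold changes -0.20 and -0.20). SLC39A10, also singled out after its counts were seen, was listed at 0 in every library.

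**Figure D3:**
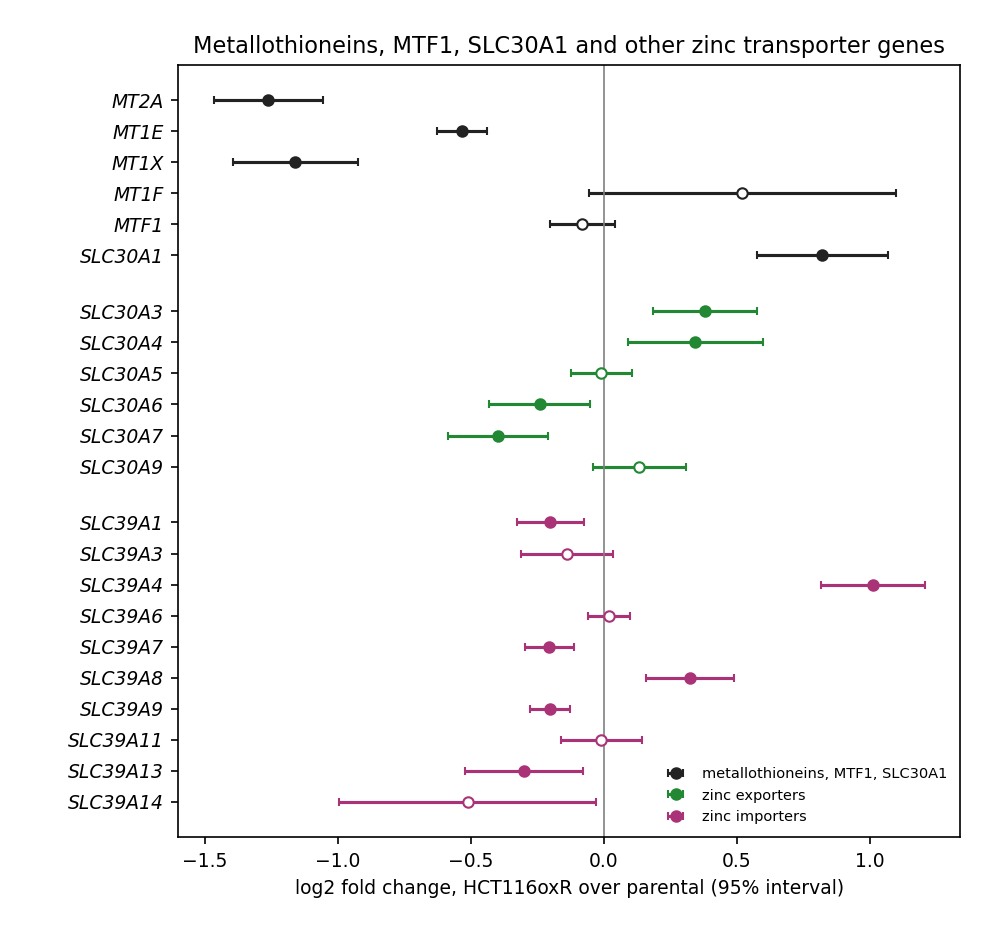
Log2 fold change of HCT116oxR over parental cells with its 95% interval (horizontal axis) for the metallothioneins with MTF1 and SLC30A1 (black), other zinc exporters (green) and zinc importers (purple). Filled points passed the threshold; MT2A and MT1X lie lowest, and SLC39A4 (1.01) and SLC30A1 (0.82) lie highest.

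The remaining lists cover genes that metals or the same stimuli are known to move. As a baseline, 21.8% of all tested genes were called lower and 22.3% higher. Of the metal-responsive genes, 12 of 13 were tested, 7 fell and 4 rose, while 1 missed the threshold, and their median log2 fold change was -0.69. Those with the largest changes all fell, namely SQSTM1, the autophagy receptor gene (942 ± 19.9 to 297 ± 3.37 CPM, log2 fold change -1.67), SLC7A11, the cystine importer gene (-1.19), GCLC, a glutathione synthesis gene (-1.05), and FTH1, the ferritin heavy chain gene (581 ± 8.75 to 287 ± 12.8 CPM, -1.02). These genes are also targets of NRF2. The rises were in DNAJB1 (0.34) and HSPA1B (0.33), heat shock genes, NDRG1 (0.42), on chromosome 8, and SELENOH (0.22, listed under its older symbol C11orf31), all chosen after their values were seen. Without parental replicate 2 SELENOH was not called by edgeR (adjusted p = 0.0621). HSPA1B has a near-identical copy, HSPA1A, that may share its reads.

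MT2A is also a classic glucocorticoid-induced gene. The list of glucocorticoid-induced genes also holds NR3C1, the gene of the glucocorticoid receptor, which is not one of the induced genes. Of the list 9 of 10 were tested, and their median was -0.06. Of these 3 rose and 3 fell, beside 22.3% and 21.8% of all tested genes. Those that fell were NR3C1 and the induced genes SGK1 and PER1 (-0.19, named after its value was seen). The call of PER1 was lost in DESeq2 (adjusted p = 0.0523), in edgeR without TMM factors (0.0542) or without a filter on low counts (0.0617), and in edgeR without parental replicate 2 (0.0791), parental replicate 3 (0.163), HCT116oxR replicate 2 (0.0870) or HCT116oxR replicate 3 (0.141). NR3C1 fell from 65.1 ± 4.89 to 25.8 ± 1.58 CPM (log2 fold change -1.33, edgeR adjusted p = 4.31e-32), with no overlap between lines. SGK1 stood at -1.49, whereas TSC22D3 (0.96) and FKBP5 (0.49) rose.

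Of the copper handling genes, 11 of 12 were tested, 3 fell and 1 rose, and their median was -0.10. Among all tested genes 21.8% were called lower and 22.3% higher. SCO2, a mitochondrial copper chaperone gene on chromosome 22, fell by 0.86 on the log2 scale, CUTA fell by 0.35, and ATP7B, a copper exporter gene, rose by 0.47. SLC31A1, the copper importer gene, fell by 0.44, which DESeq2 did not call (adjusted p = 0.0610) and edgeR did not call without parental replicate 1 (adjusted p = 0.379) or HCT116oxR replicate 3 (0.0748).

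The metallothionein cluster spans 119124 bases of chromosome 16 (56565073 to 56684196, from MT4 to MT1X). Within 1 Mb, 18 other genes were tested, of which 3 rose, 2 fell and 13 missed the threshold, and their median log2 fold change was -0.04. Over all tested genes 22.3% were called higher and 21.8% lower. The nearest protein-coding genes were BBS2 (-0.05) and OGFOD1 (-0.38) on one side and NUP93 (-0.09) and HERPUD1 (-0.29) on the other, of which OGFOD1 and HERPUD1 fell. The lowest of the 18 was OGFOD1. The part of any regional change in the metallothionein values was not tested.

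Of the neighbours that rose, ADGRG1 had the lowest adjusted p (2.06e-15 by edgeR). NUDT21 rose by 0.10, PLLP by 0.76 and ADGRG1 by 0.73 on the log2 scale, and without parental replicate 3 only ADGRG1 among them stayed past the threshold, with 1 neighbour higher in all. PLLP was also not called by DESeq2 (adjusted p = 0.0618), by edgeR without a filter on low counts (0.0506), or by edgeR without parental replicate 2 (0.0568), HCT116oxR replicate 2 (0.199) or HCT116oxR replicate 3 (0.103). NUP93 passed as lower without parental replicate 2 (-0.13) and without HCT116oxR replicate 1 (-0.12). These 3 risers were chosen after their values were seen.

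**Figure D4:**
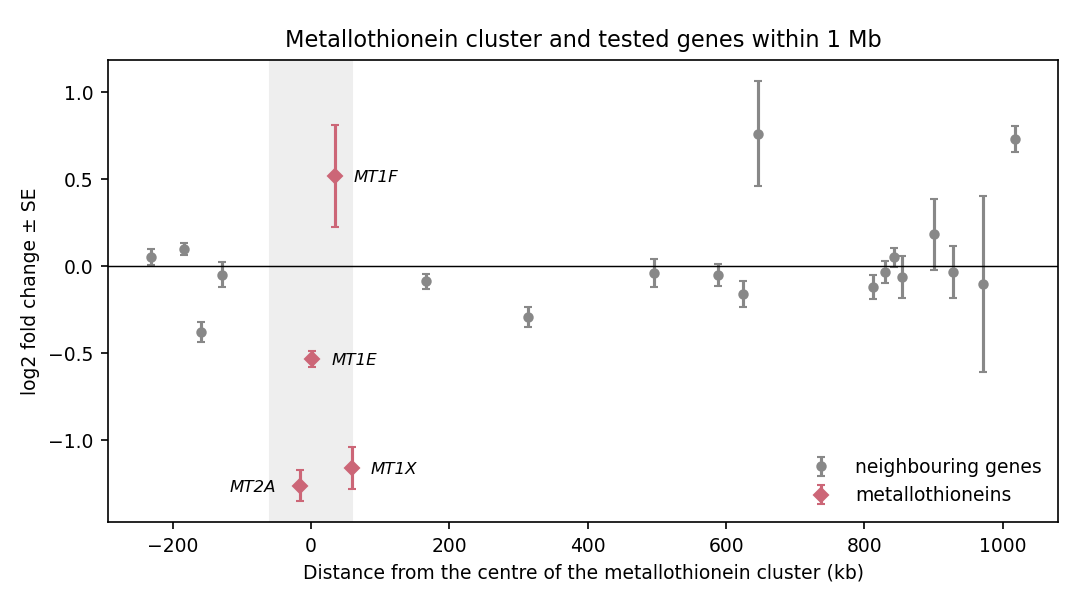
Log2 fold change ± SE of tested genes (vertical axis) by distance from the centre of the metallothionein cluster in kb (horizontal axis); the grey band is the cluster, red diamonds are metallothioneins and grey points other genes. MT2A, MT1X and MT1E lie below every neighbour, the lowest of which is OGFOD1 at -0.38.

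Around SLC30A1, 13 genes were tested within 1 Mb, of which 4 rose, 2 fell and 7 did not pass (median 0.10). On its sides were TRAF5 (0.54) and LPGAT1 (0.21), which rose, INTS7 (-0.45), which fell, and RCOR3 (-0.08). Around MTF1, 16 genes were tested, 3 rose, 3 fell and 10 did not pass (median -0.03). Next to it C1orf122 (-0.51) and INPP5B (-0.24) fell, while YRDC (0.11) and SF3A3 (-0.02) did not pass. For comparison with both loci, 22.3% of all tested genes were called higher and 21.8% lower.

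Genes with the most similar pattern were found by the root mean square difference of log2 CPM over the 6 libraries, after centring each gene on its mean, among the 12729 genes whose average log2 CPM reached 2. For MT2A they were HNRNPA3 on chromosome 2 (difference 0.0495), MYO1E (0.0604), AGPAT4 (0.0788), and LMF2 (0.0825) and SBF1 (0.0891), both on chromosome 22. MT1X ranked 50 by this measure (0.155) and MT1E 734 (0.377). Their log2 fold changes were -1.16 and -0.53, beside -1.26 for MT2A, and MT1X had fewer counts than MT2A. A rank here mostly reflects how near a gene's fold change is to that of MT2A. For SLC30A1 they were PAIP2B (0.0592), CXXC5 (0.0702), MIR221 (0.0707), C14orf28 (0.0715) and LOC102724858 (0.0853). The measure is dominated by the difference between the lines, and the libraries share their depth and scaling.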

How the data were processed

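Total RNA was measured in 3 parental HCT116 and 3 HCT116oxR libraries. The authors deposited raw counts per gene, from reads aligned by HISAT2 to GRCh38 per the submitters' processing notes. How reads were counted (tool, annotation, strand, reads that fit several copies) is not given in the sources used here. The small RNA table holds mature miRNAs and was not used here.

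The whole table was fitted with edgeR 4.0.16 (R 4.3.3), using filterByExpr (minimum count 10, minimum total 15), TMM factors and the robust quasi-likelihood F test, 2-sided, adjusted by Benjamini-Hochberg. The SE was derived from the log2 fold change and F. The 95% intervals use edgeR's total degrees of freedom, the residual ones plus those of its prior. The test was tried on simulated counts with known changes. Alternatives were no TMM factors, RLE size factors, no filter, DESeq2 1.42.0, a replicate block and leaving out each library. Ratios used a pseudocount of 0.5 and an exact permutation test.

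Libraries of a line differed by more than sampling noise (lowest chi-square per degree of freedom 2.21), which does not show where the difference arose. Each library was treated as 1 replicate. Genes named were all 9, other metallothionein rows with counts, up to 4 called members of each list with the largest changes, the nearest neighbours and the 5 most similar genes. Apart from cell type markers, genes outside this rule are marked as chosen after their values were seen. The genes and lists were chosen with earlier results of these data known. Names and positions came from the RefSeq gene table for GRCh38.p14.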

Additional observations from a re-analysis of the deposited data

How the results depend on the processing

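The falls of MT2A, MT1X and MT1E and the rise of SLC30A1 kept their direction and their call in all 11 alternatives run, and MT1F and MTF1 passed in none of them. The edgeR adjusted p of MT2A depended strongly on the setting. It ran from 8.13e-158 without a filter on low counts to 1.38e-04 without HCT116oxR replicate 3. Leaving out 1 library at a time, the log2 fold change ranged from -1.33 to -1.18 for MT2A, -1.25 to -1.10 for MT1X, -0.60 to -0.50 for MT1E, 0.71 to 0.94 for SLC30A1, 0.29 to 0.66 for MT1F and -0.11 to -0.06 for MTF1. Over all genes 7721 were called in the edgeR fit, 7497 by DESeq2, 7636 without a filter and 6994 to 7275 with a library left out. The scalings moved the median of all genes by less than 0.01 (log2). With MT2A, MT1X and MT1E alone the summed level had a log2 ratio of -0.95, against -0.93 for all metallothionein rows.

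The difference between lines in the MT2A to MT1X ratio was -0.11, ranged from -0.20 to 0.00324 with a library left out, and was above 0 without HCT116oxR replicate 1. MT1P1 ranged from -0.39 to 0.28 around -0.08 and was above 0 without parental replicate 3 (0.16) and without HCT116oxR replicate 3 (0.28). SF3A3 ranged from -0.048 to 0.012 around -0.02 and was above 0 without HCT116oxR replicate 1. SLC30A5 ranged from -0.054 to 0.028 around -0.01 and was above 0 without parental replicate 2, HCT116oxR replicate 2 or HCT116oxR replicate 3. None of these was called, and the cause was not tested. Libraries that share a replicate number showed correlations of deviations from -0.0307 to 0.0148 over 12729 genes. No library correlated best with its own number, so the numbers were not read as pairs. With the replicate number as a block 7565 genes were called, and the block gave MT2A -1.26, MT1X -1.16, MT1E -0.53 and SLC30A1 0.83 with no call changed. Depth limits MT1F, at 22 to 58 counts per library, and the rows at 0.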
